A study of Mus musculus with 8 samples.

Results

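The genes described here encode the constitutive 26S proteasome: the 7 alpha-ring and 7 beta-ring subunits of the 20S core (Psma1 to Psma7 and Psmb1 to Psmb7), the 6 ATPases of the 19S cap (Psmc1 to Psmc6) and 11 of its non-ATPase subunits (Psmd1, Psmd2, Psmd3, Psmd4, Psmd6, Psmd7, Psmd8, Psmd11, Psmd12, Psmd13 and Psmd14). They were chosen by name, not by a cut on measured values, though with earlier results of these data known. They are 31 of the 41388 genes counted. All 31 passed the low-count filter that left 12002 genes for testing. Microglia, the macrophages that reside in brain and spinal cord, had been isolated from adult C57BL/6 mice with CD11b, CD45 and CD11c, and their RNA was sequenced in bulk. The groups were CD11c+ microglia of mice with neuromyelitis optica (NMO), a neuroinflammatory disease (n = 2 libraries), CD11c- microglia of NMO mice (n = 3) and microglia of control mice (n = 3). The labels name neither how NMO was produced nor any transgene, and give no age beyond adult. Controls are CD11c negative by one label and total microglia, from unmanipulated mice, by their titles. Titles of control libraries are numbered 21 to 23 and NMO libraries 7 to 12, with no batch given, so any difference in handling cannot be told apart from disease in comparisons with controls. The labels do not say that libraries came from separate mice, and p-values therefore measure the spread between these samples only.

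The 26S proteasome degrades proteins tagged with ubiquitin. Its barrel-shaped core holds the proteolytic sites of Psmb6 (beta 1, caspase-like), Psmb7 (beta 2, trypsin-like) and Psmb5 (beta 5, chymotrypsin-like) between alpha rings that gate the entrance, and its cap binds ubiquitin, removes it, and unfolds and threads the substrate. In cells exposed to interferon, such as activated macrophages and microglia, Psmb9, Psmb10 and Psmb8 can take the places of those catalytic subunits to form the immunoproteasome, which favours peptides for MHC class I presentation.

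Total counts per library ranged from 7500815 to 9246061 for controls and from 6437516 to 6819662 for NMO CD11c- cells, and were 4943207 and 5914412 for CD11c+ cells. Single proteasome subunits had 26 to 989 counts per library. Values are CPM, counts scaled to a common library size. Itgax, which encodes CD11c, was at 188.1 and 181.3 CPM in the CD11c+ libraries, 35.5 to 41.3 in NMO CD11c- libraries and 30.6 to 32.1 in controls. The 11 microglia markers summed to 34500 and 35210 CPM in CD11c+ libraries, 34720 to 42400 in NMO CD11c- libraries and 41150 to 45070 in controls. The 10 neutrophil markers summed to 15.3 and 19.7, 2067 to 10680 and 864.4 to 1774 CPM in the same order, all 10 being detected. The 8 monocyte markers summed to 55.0 and 44.9, 201.6 to 992.5 and 82.8 to 158.1 CPM, and the 3 endothelial markers to 31.9 and 29.4, 22.7 to 32.3 and 48.9 to 59.3. The 5 genes listed as dendritic cell markers (Flt3, Zbtb46, Xcr1, Clec9a and Siglech) summed to 854.2 and 1253, 1343 to 1518 and 1568 to 1755. Of these 5, 3 passed the low-count filter. Which of them made up the sum is not given, so it is not a measure of dendritic cells. The part of these differences in the results below was not tested, except that neutrophil and immediate early levels were used as covariates. The 12 immediate early and dissociation stress genes summed to 9102 and 36660, 7302 to 18850 and 22380 to 46710 CPM. T cell markers summed to at most 0.978 CPM in any library, with Cd3e and Cd3g at 0 in all 8 libraries, neuron markers to at most 2.54 and astrocyte markers to at most 5.31. Expression correlated with GC content in CD11c+ replicate 1 differently from the other libraries (Spearman 0.592 across genes against -0.299 to -0.0378, each library relative to the mean of all). In bulk RNA, fewer cells of a type and less RNA per cell cannot be told apart.

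The summed mRNA of the 31 subunits was 1580 and 1466 CPM in the CD11c+ libraries, 1475, 1518 and 1454 CPM in the NMO CD11c- libraries and 1690, 1658 and 1544 CPM in the controls. The control libraries were above all NMO CD11c- libraries, whereas CD11c+ replicate 1 lay within the control range. Of the sums, the core genes gave 523.7 and 512.7 CPM in the CD11c+ libraries, 495.7, 524.6 and 495.8 CPM in the NMO CD11c- libraries and 550.4, 529.3 and 487.3 CPM in controls. The core sums overlapped between all 3 groups. The cap genes gave 1056 and 953.1, 979.6, 993.1 and 958.5, and 1140, 1129 and 1057 CPM in the same order. Cap sums of the controls all exceeded those of both NMO groups, by little in the case of CD11c+ replicate 1 (1056 against 1057 CPM).

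Per kilobase of exon, the control level of the 31 subunits ran from 4.73 CPM per kb (Psma3) to 48.8 (Psma6), a 10.3-fold span, with a median of 19.97 beside 6.32 over all genes tested. Of the 31 genes, 29 lay above that overall median, the exceptions being Psma3 and Psma5. ATPase genes had the highest median level (23.4 CPM per kb), then non-ATPase genes (20.7), alpha-ring genes (14.2) and beta-ring genes (12.3). Psma6, Psmc3, Psmc5, Psmb2 and Psmb4 headed the order in controls, at 48.8, 36.6, 36.3, 29.8 and 29.1 CPM per kb. Psmc3 and Psmc5 could not be separated from each other, nor Psmb2 from Psmb4, since their library ranges overlapped. Psma6 was also first in the CD11c- and CD11c+ groups, at 40.7 and 43.1 CPM per kb. Subunits of 1 complex were thus counted at unequal levels, and exon length in the annotation, which includes rarely used exons, enters each of these values. Psma3, Psma5, Psmb3 and Psmd11, the lowest in controls, have near-identical copies elsewhere in the genome, to which reads could be lost. So do Psmc1, Psmd2, Psma4 and Psmb5 higher in the order. The part of these copies in the levels was not tested.

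**Figure D1:**
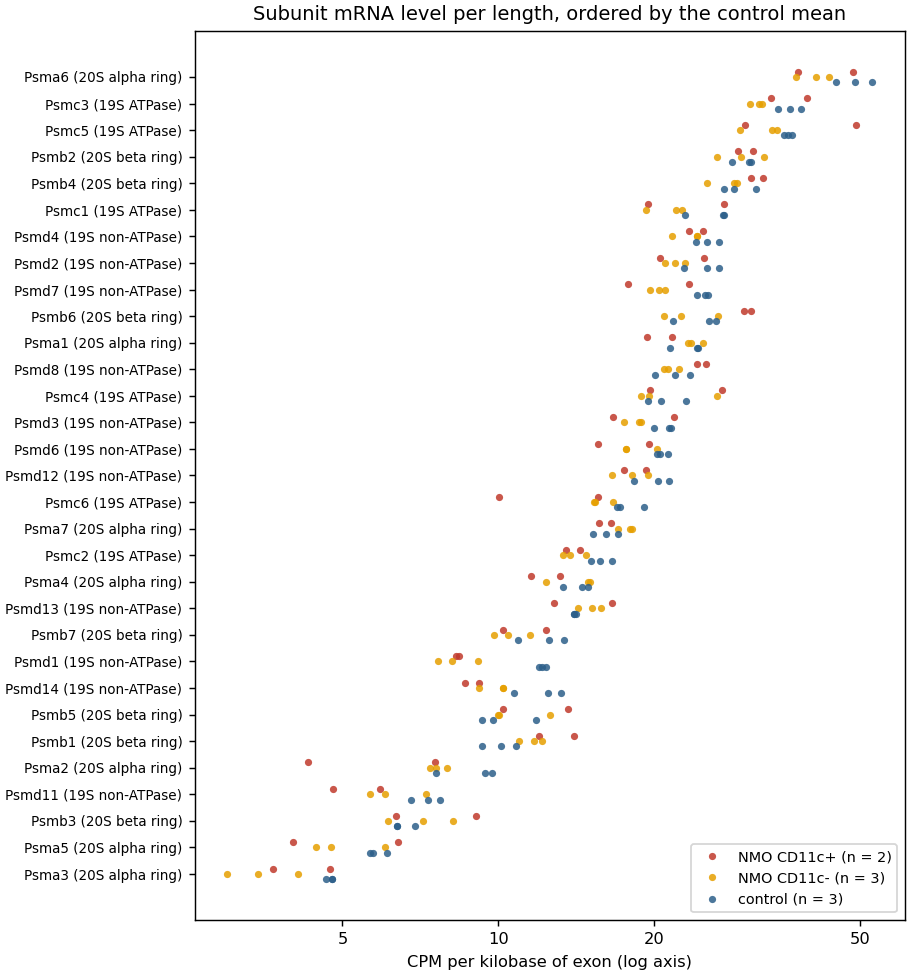
Level of each subunit per kilobase of annotated exon in the 3 groups (horizontal axis, log scale, CPM per kb), 1 point per library, in the order of the control means. Psma6 is highest and Psma3 is lowest in controls, with means of 48.8 and 4.73 CPM per kb.

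The coefficient of variation over all 8 libraries had a median of 12.2% for the 31 genes and 17.03% for all genes tested. These sets were not matched for level, and 29 of the 31 genes lay above the overall median per kilobase. The coefficient was lowest for Psmd4 (6.02%), a ubiquitin receptor of the cap. It was highest for Psma2 (21.4%), an alpha-ring gene, followed by Psmd1 (20.8%), the scaffold subunit Rpn2 of the cap's base. Psmd4 was at 69.7 and 65.5 CPM in CD11c+ libraries, 67.8, 67.8 and 60.8 in NMO CD11c- libraries and 75.0, 71.0 and 67.6 in controls. Its 3 groups overlapped, and its log2 fold changes were 0.05 (CD11c+ against CD11c-), -0.12 (CD11c- against control) and -0.08 (CD11c+ against control). The genes lie on 14 chromosomes, and their GC content (median 49.5%, all genes tested 49.6%) was close to that of other genes, while their longest transcripts were short (median 1819 bases against 3348).

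**Figure D2:**
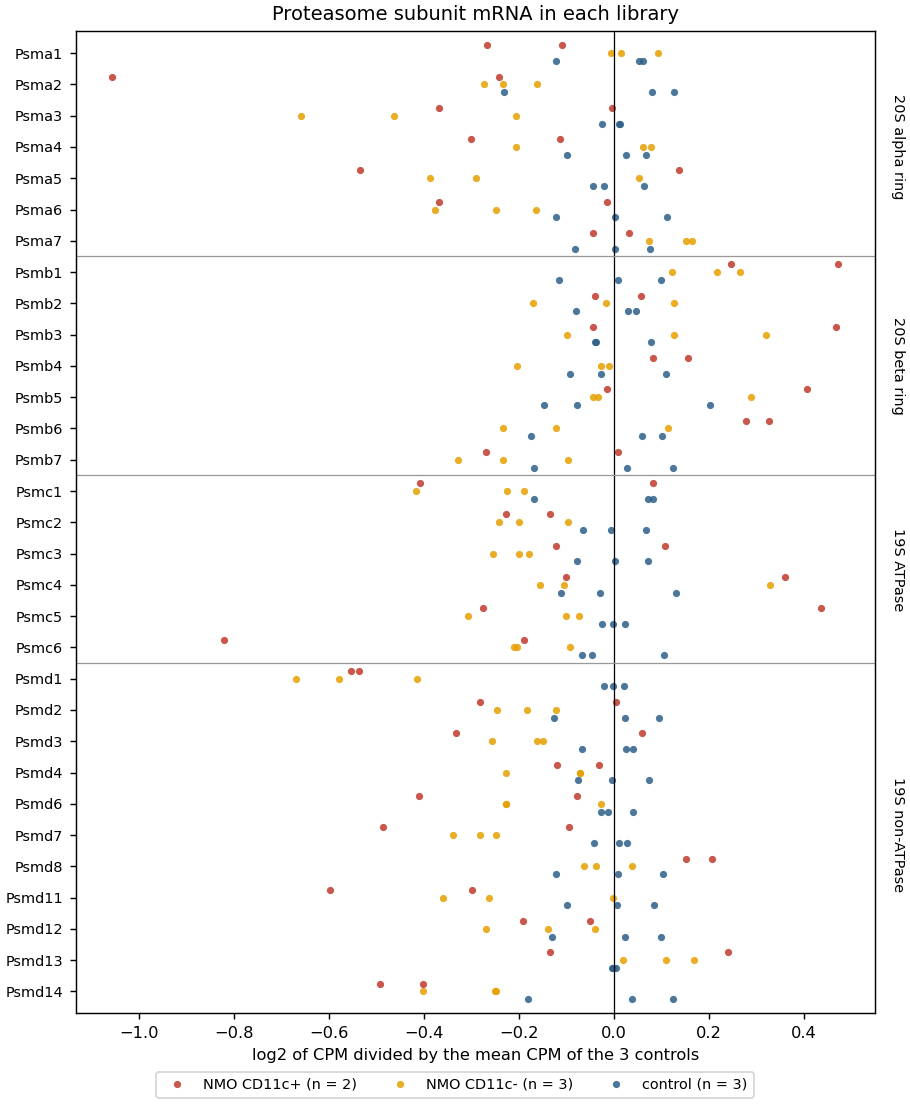
Each point is 1 library and gives the log2 ratio of the subunit's CPM to the mean CPM of the 3 controls (horizontal axis); rows are the 31 subunits grouped by structure. Psmd1 is the row in which every NMO library lies far left of every control, and CD11c+ replicate 1 is the outlying point of Psma2 (15.7 CPM) and of Psmc6 (35.1 CPM).

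Promoter sequences are shown for 4 members because they differ in their data or role: Psmd1, the only gene of the 31 that passed the test; Psmd4, the least variable; and the catalytic subunits Psmb5 and Psmb6. Each runs 5′ to 3′ on the gene's strand from 250 bases before to 50 bases after the RefSeq start (GRCm38.p6), with matches to the searched motifs in capitals. The windows are chr1:86064369-86064668 (plus strand) for Psmd1, chr3:95042565-95042864 (minus) for Psmd4, chr14:54617946-54618245 (minus) for Psmb5 and chr11:70525107-70525406 (plus) for Psmb6.
Psmd1: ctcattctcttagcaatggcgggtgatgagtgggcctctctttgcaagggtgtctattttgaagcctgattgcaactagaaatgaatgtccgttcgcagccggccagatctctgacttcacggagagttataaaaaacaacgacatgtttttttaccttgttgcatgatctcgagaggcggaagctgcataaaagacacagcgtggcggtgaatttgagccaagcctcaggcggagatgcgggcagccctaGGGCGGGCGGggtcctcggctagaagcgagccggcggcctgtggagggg
Psmd4: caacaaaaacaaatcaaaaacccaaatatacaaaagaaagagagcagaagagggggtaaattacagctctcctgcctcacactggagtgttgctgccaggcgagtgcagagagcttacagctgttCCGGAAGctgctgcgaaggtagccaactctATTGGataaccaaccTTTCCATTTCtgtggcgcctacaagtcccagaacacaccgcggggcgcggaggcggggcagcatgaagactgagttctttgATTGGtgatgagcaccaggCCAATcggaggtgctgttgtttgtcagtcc
Psmb5: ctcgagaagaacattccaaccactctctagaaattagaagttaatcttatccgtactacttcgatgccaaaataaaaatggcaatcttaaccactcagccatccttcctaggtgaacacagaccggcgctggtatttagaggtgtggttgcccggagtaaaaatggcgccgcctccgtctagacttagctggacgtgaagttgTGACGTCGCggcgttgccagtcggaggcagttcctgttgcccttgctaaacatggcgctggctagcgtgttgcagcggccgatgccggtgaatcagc
Psmb6: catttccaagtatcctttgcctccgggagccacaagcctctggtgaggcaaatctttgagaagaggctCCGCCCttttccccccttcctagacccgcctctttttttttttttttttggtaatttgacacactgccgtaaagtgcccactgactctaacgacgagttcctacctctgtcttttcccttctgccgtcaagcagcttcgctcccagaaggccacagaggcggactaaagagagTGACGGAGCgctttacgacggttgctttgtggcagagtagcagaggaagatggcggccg

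The motifs searched, on both strands, were the core of the antioxidant response element (TGACNNNGC), through which Nfe2l1 is known to drive proteasome genes, the CCAAT box (CCAAT), the GC box (GGGCGG), an ETS site (CCGGAAG) and the core of the interferon-stimulated response element (GAAA, any 2 bases, GAAA). In the sequences above, Psmb5 and Psmb6 each held 1 antioxidant response element core, beginning 47 and 9 bases before the start. The Psmd1 window held only overlapping GC boxes, beginning 1 and 5 bases after the start. The annotation that gave the gene coordinates starts Psmd1 near the upstream end of this window. By it, most of the window lies inside the gene, and sequence before the window was not searched. Psmd4 held 3 CCAAT boxes, 1 ETS site and 1 interferon-stimulated core. RefSeq windows matched 25 of the 31 genes (27 windows); those of Psmb1, Psmb2, Psmb7, Psmc3, Psmd3 and Psmd7 were not used here. The ETS site was in 11 of the 27 windows (40.7%, 10 genes) beside 8.86% of 32851 windows of all genes, and the GC box in 15 (55.6%) beside 35.7%. Shares were 14.8% beside 12.4% for the antioxidant core (Psmb5, Psmb6, Psmc6 and Psmd12), 37.0% beside 37.4% for the CCAAT box and 7.41% beside 3.44% for the interferon core (Psmb3 and Psmd4). A match is a description of letters in the window. These motifs and the 4 promoters were chosen with the expression results known.

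NMO CD11c- microglia were compared with control microglia to ask how the proteasome genes stood in diseased tissue in cells without CD11c. In this comparison 1 of the 31 genes fell and none rose at an adjusted p under 0.05 (edgeR quasi-likelihood test, Benjamini-Hochberg over all 12002 genes). Among all genes tested, 0.717% fell and 3.0% rose (3.72% in either direction). Psmd1 was the gene that fell. At an unadjusted p under 0.05, 5 subunits were lower (7.02% of all genes) and 0 higher (11.7%). All 31 fitted values were within 1.5-fold of control, and all 31 intervals (95%) lay within 2-fold. The median log2 fold change of the 31 genes was -0.16 (all genes tested -0.004), the range was -0.55 to 0.20, and 24 of 31 were below 0 (77.4%, beside 50.6% of all genes).

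Psmd1 (ENSMUSG00000026229, GRCm38 chromosome 1, 86064387 to 86139151) was at 66.3, 55.6 and 59.2 CPM in the NMO CD11c- libraries, 60.3 and 61.0 CPM in the CD11c+ libraries and 88.3, 89.8 and 87.1 CPM in the controls. Every NMO library was below every control, and the controls differed little among themselves (88.4 ± 1.34 CPM, SD, n = 3). The NMO CD11c- mean was 60.4 ± 5.45 CPM (SD, n = 3), a log2 fold change of -0.55 (SE 0.092, 95% interval -0.755 to -0.346, adjusted p = 0.0104), which is 0.683 of control. The CD11c+ mean was 60.6 ± 0.494 CPM (SD, n = 2), a log2 fold change of -0.54 against control (SE 0.105, 95% interval -0.779 to -0.310, adjusted p = 0.0116). Both comparisons use the same 3 control libraries, so they are not independent. Between the NMO groups Psmd1 differed by 0.01 (95% interval -0.229 to 0.241, adjusted p = 0.984). The call for NMO CD11c- cells was lost without CD11c- replicate 2 (adjusted p = 0.0527), control replicate 1 (0.0574) or control replicate 2 (0.0612), and that for CD11c+ cells without control replicate 2 (0.0504), with log2 fold changes of -0.62 to -0.49 and -0.56 to -0.53 over the libraries left out. With neutrophil marker level as a covariate the log2 fold changes were -0.46 and -0.84 and neither was called (adjusted p = 0.892 and 0.954). With that covariate 0 of all 12002 genes fell in either comparison, so the loss is not particular to Psmd1. Exons of Psmd1 overlap Htr2b on the opposite strand (3.5% of exon bases, 0 to 3 counts per library). They also overlap Gm21972 on the same strand (4.1%, 0 counts in all 8 libraries). Reads that fit both genes may be missing from both, so these counts do not bound the uncertainty.

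Of the other non-ATPase genes, 9 of 10 had log2 fold changes below 0 in NMO CD11c- cells. Psmd14 encodes Rpn11, the enzyme that removes ubiquitin chains from substrates, and was at 25.9, 28.8 and 28.8 CPM in NMO CD11c- libraries beside 37.3, 35.1 and 30.2 in controls. The groups did not overlap, and the log2 fold change was -0.30 (SE 0.117, adjusted p = 0.202). Psmd7, the partner Rpn8 of Rpn11, was at 44.4, 46.2 and 47.3 CPM beside 57.4, 56.7 and 54.7. These groups were also apart, with a log2 fold change of -0.29 (adjusted p = 0.185, SE 0.110); fitted on these 2 groups alone, Psmd7 passed the threshold (adjusted p = 0.0262), as it did when either CD11c+ library was left out (0.031 and 0.0294). Psmd11, Rpn6 of the lid, was at 38.6, 36.1 and 46.3 CPM beside 46.6, 49.2 and 43.3, which overlapped (log2 fold change -0.20, adjusted p = 0.433). Psmd2 (-0.18), Psmd3 (-0.19), Psmd6 (-0.16), Psmd12 (-0.15), Psmd4 (-0.12) and Psmd8 (-0.02) had smaller values, and Psmd13 was the one above 0 (0.10).

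Among the ATPases, which form the ring that unfolds substrates, none was called, 5 of 6 log2 fold changes were below 0 and the same 5 did not overlap with controls. Psmc3 was at 79.9, 83.0 and 84.2 CPM in NMO CD11c- libraries beside 100.2, 95.5 and 90.2 in controls. Its log2 fold change was -0.21 (SE 0.0938, adjusted p = 0.263). Psmc1 was at 43.7, 42.6 and 37.3 CPM beside 52.7, 52.4 and 44.3, a log2 fold change of -0.27 (adjusted p = 0.324, SE 0.139). In both genes the nearest libraries of the groups were close, at 84.2 against 90.2 and 43.7 against 44.3 CPM. Psmc2 (74.2, 67.2 and 69.1 beside 79.0, 83.2 and 75.9 CPM) had a log2 fold change of -0.18. Psmc6 (53.9, 53.6 and 58.2 beside 66.8, 60.1 and 59.2 CPM) had one of -0.17, Psmc5 one of -0.16 and Psmc4 one of 0.04. Over the whole set of 31 genes, 11 were without overlap below the controls (35.5% of them, beside 16.1% of all genes tested) and 2 above (Psmb1 and Psmd13, beside 17.6%); 9 of the 11 were cap genes.

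In the core, no gene was called, and alpha-ring and beta-ring genes had medians of -0.20 and -0.01. Psma3, an alpha-ring gene, was at 11.7, 16.0 and 13.4 CPM in NMO CD11c- libraries beside 18.6, 18.1 and 18.6 in controls. It was lower in each, with a log2 fold change of -0.43 (adjusted p = 0.168, SE 0.157). Psma6 was at 53.7, 46.4 and 50.7 CPM beside 65.1, 60.3 and 55.3, also without overlap (log2 fold change -0.26, adjusted p = 0.267). Psma2 (-0.22), Psma5 (-0.20), Psma4 (-0.02), Psma1 (0.03) and Psma7 (0.13) made up the rest of the ring. Psmb1, a non-catalytic beta subunit, was at 50.4, 53.9 and 55.7 CPM beside 49.7, 46.6 and 42.8, higher in each NMO library, with a log2 fold change of 0.20 (adjusted p = 0.329, SE 0.104). The catalytic subunits had log2 fold changes of 0.08 (Psmb5), -0.07 (Psmb6) and -0.22 (Psmb7), and Psmb2, Psmb3 and Psmb4 had -0.01, 0.13 and -0.08.

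NMO CD11c+ microglia were compared with the same control libraries. Again Psmd1 fell and no other subunit was called, while 3.36% of all genes fell and 6.85% rose (10.2% in either direction). At an unadjusted p under 0.05, 5 subunits were lower (13.2% of all genes) and 2 higher (15.6%). The median log2 fold change was -0.13 (all genes tested 0.0061), the range was -0.58 to 0.36, and 21 of 31 were below 0 (67.7%, beside 49.5% of all genes). Groups did not overlap for 9 genes below the controls (29.0%, beside 21.5% of all genes tested) and 3 above (9.68%, beside 22.2%). Intervals were within 2-fold for 30 genes, the exception being Psma2.

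The structural groups differed in sign. All 7 alpha-ring genes had log2 fold changes below 0 against control (median -0.18), 6 of 7 beta-ring genes had values above 0 (median 0.21), and ATPase and non-ATPase genes had medians of -0.08 and -0.13. The summed beta-ring CPM divided by the summed alpha-ring CPM was 1.175 and 1.196 in the CD11c+ libraries, 0.887, 1.03 and 0.991 in the NMO CD11c- libraries and 0.950, 0.888 and 0.944 in controls. Both CD11c+ libraries were above all others. The summed cap CPM divided by the summed core CPM was 2.02 and 1.86 in CD11c+ libraries, 1.98, 1.89 and 1.93 in NMO CD11c- libraries and 2.07, 2.13 and 2.17 in controls, which were above all NMO libraries. These ratios need no scaling between libraries, were chosen after the values were seen, and were not tested. With a correction for GC content and length the beta-ring median was 0.07, with 3 of 7 genes below 0. Without CD11c+ replicate 1 it was 0.06, also with 3 below 0, and -0.11 with that correction as well (5 below 0). Without CD11c+ replicate 2 it was 0.24, and 0.07 with the correction (3 below 0), where 4 of 7 alpha-ring genes were below 0. The alpha-ring median was below 0 in all 21 alternative settings (-0.25 to -0.05).

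**Figure D3:**
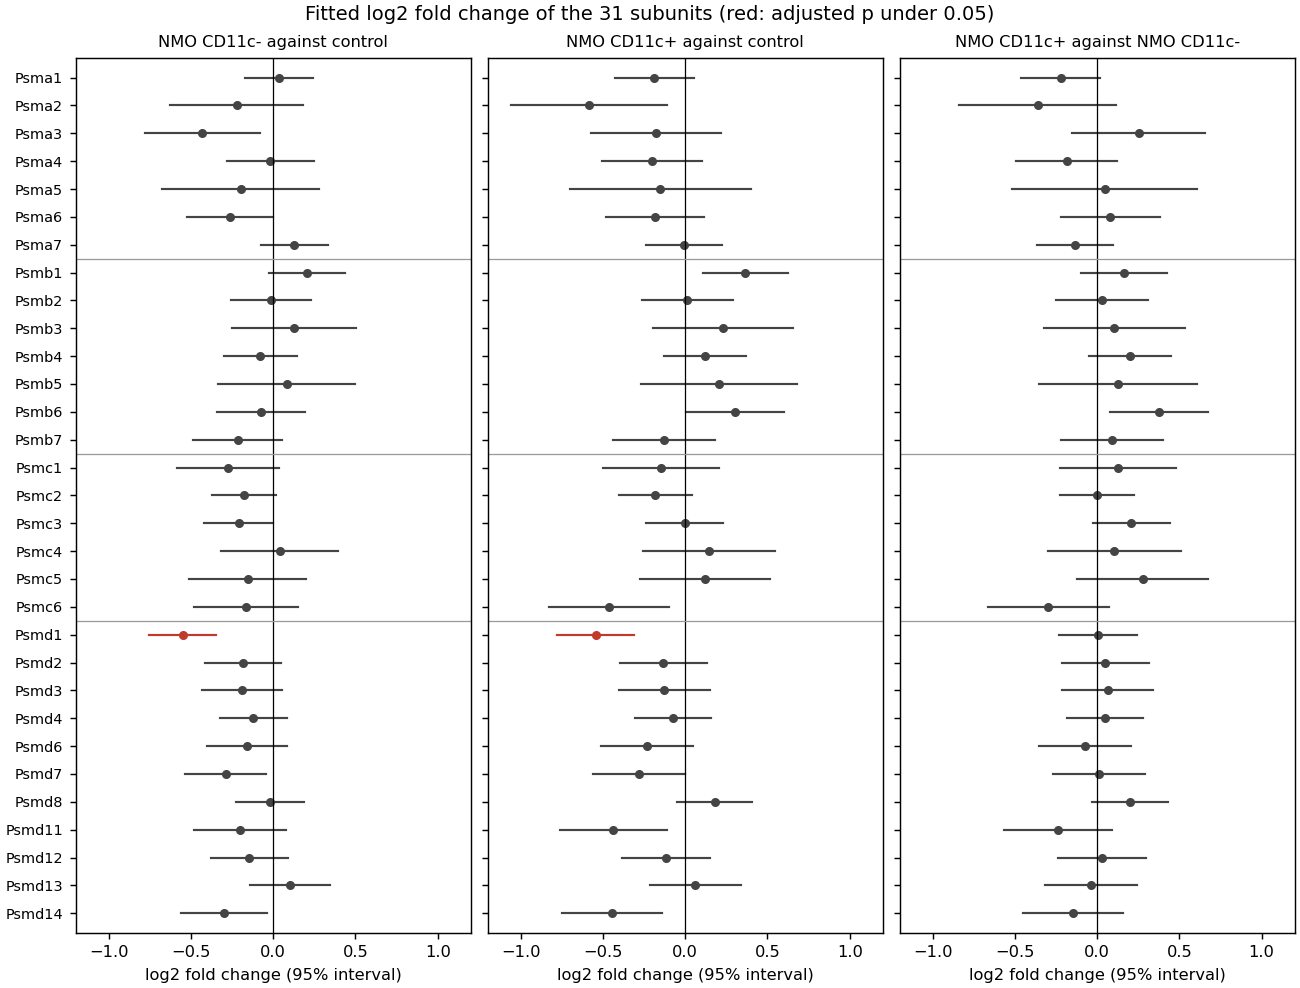
Fitted log2 fold change of each subunit with its 95% interval in the 3 comparisons, grouped by structure; called genes are red and the rest grey. Psmd1 is the called gene against control in both NMO groups, at -0.55 and -0.54, and no gene is called between the NMO groups.

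In the beta ring, Psmb1 had the highest log2 fold change. It was at 55.0 and 64.3 CPM in CD11c+ libraries beside 49.7, 46.6 and 42.8 in controls. Both libraries were above every control, with a log2 fold change of 0.36 (adjusted p = 0.0726, SE 0.116), which passed the threshold without CD11c+ replicate 1 (0.47, adjusted p = 0.038) and with immediate early gene level as a covariate (0.46, adjusted p = 0.0348). Psmb6, the caspase-like subunit, was at 57.6 and 55.7 CPM beside 47.8, 49.3 and 40.7. These groups were also apart, with a log2 fold change of 0.30 (adjusted p = 0.168, SE 0.133). Psmb5, the chymotrypsin-like subunit, was at 12.3 and 9.16 CPM beside 10.6, 8.36 and 8.76 in controls and 8.98, 9.03 and 11.3 in NMO CD11c- libraries. The groups overlapped and the log2 fold change against control was 0.21 (95% interval -0.269 to 0.681, adjusted p = 0.553). Psmb7, the trypsin-like subunit, was at 42.3 and 34.9 CPM in CD11c+ libraries, 35.8, 39.3 and 33.5 in NMO CD11c- libraries and 45.9, 42.9 and 37.4 in controls. Again all 3 groups overlapped, and the log2 fold change of CD11c+ cells against control was -0.13 (95% interval -0.436 to 0.183). Psmb4 was at 60.1 and 63.3 CPM in CD11c+ libraries and at 61.3, 53.2 and 55.7 in controls (log2 fold change 0.12), and Psmb2 and Psmb3 had 0.01 and 0.23.

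In the alpha ring, Psma2 had the lowest log2 fold change of the 31 genes. It was at 15.7 and 27.7 CPM in CD11c+ libraries beside 35.7, 34.6 and 27.9 in controls. CD11c+ replicate 1 was far below all controls and replicate 2 was level with control replicate 3. The log2 fold change was -0.58 (SE 0.213, 95% interval -1.06 to -0.111, adjusted p = 0.104). It was -0.25 (adjusted p = 0.403) without replicate 1 and -1.06 (0.00259) without replicate 2, and it passed the threshold without a low-count filter (0.0138). Psma1 was at 63.7 and 57.1 CPM beside 71.3, 71.7 and 63.2, and Psma4 was without overlap below the controls (27.4 and 31.2 against 34.4, 35.4 and 31.5 CPM). Their log2 fold changes were -0.19 and -0.20. Psma3 (18.4 and 14.3 CPM), Psma6 (59.6 and 46.7 CPM), Psma5 and Psma7 had -0.18, -0.18, -0.15 and -0.01.

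In the cap, Psmd14 was at 24.3 and 25.9 CPM in CD11c+ libraries, below every control, with a log2 fold change of -0.45 (adjusted p = 0.0632, SE 0.136). Psmd14 passed the threshold with library-size scaling (adjusted p = 0.0472), and its log2 fold change was -0.50 without CD11c+ replicate 2. Over 20 alternative settings, the neutrophil covariate apart, it was -0.53 to -0.15. Psmd11 was at 30.6 and 37.7 CPM, also below every control (log2 fold change -0.44, SE 0.146, adjusted p = 0.0825). Psmd11 passed the threshold without a filter (adjusted p = 0.0366). Over libraries left out its log2 fold change was -0.60 to -0.30. It was -0.60 without CD11c+ replicate 2, and 0.02 with the correction for GC content and length as well. Psmc6 was at 35.1 and 54.4 CPM, with a log2 fold change of -0.46 (adjusted p = 0.097, SE 0.164); replicate 1 was the lower by far, and the value was -0.82 (0.00117) without replicate 2, -0.19 (0.348) without replicate 1 and called without a filter (0.0171). Psmd7 was at 52.7 and 40.2 CPM (-0.28, adjusted p = 0.174), Psmc2 at 72.3 and 67.8 (-0.18), Psmc1 at 52.7 and 37.5 (-0.15) and Psmc3 at 102.7 and 87.6 (-0.00317). Psmc1 and Psmc3 overlapped with controls, while Psmd7 and Psmc2 did not. Psmc4 and Psmc5 had 0.14 and 0.12, Psmd8 and Psmd13 had 0.18 and 0.06, and Psmd2, Psmd3, Psmd6 and Psmd12 had -0.13, -0.13, -0.23 and -0.12.

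Between CD11c+ and CD11c- microglia of NMO mice no proteasome subunit was called, beside 0.1% of all genes that rose and 0.183% that fell (0.283% in either direction). DESeq2 and the edgeR exact test also called 0 of the 31, and at an unadjusted p under 0.05 1 gene, Psmb6, was higher (7.9% of all genes) and 0 lower (7.54%). The median log2 fold change was 0.05 (all genes tested 0.0097), the range was -0.36 (Psma2) to 0.38 (Psmb6), and 10 of 31 were below 0 (32.3%, beside 48.6% of all genes). All 31 intervals lay within 2-fold. Psmb6 was at 57.6 and 55.7 CPM in CD11c+ libraries and 39.1, 49.7 and 42.2 in NMO CD11c- libraries, without overlap, with a log2 fold change of 0.38 (SE 0.135, 95% interval 0.0764 to 0.675, adjusted p = 0.249). All 7 beta-ring genes were above 0 (median 0.13) and 4 of 7 alpha-ring genes were below 0 (median -0.14). Without CD11c+ replicate 1 the beta-ring median was 0.07 with 3 of 7 genes below 0, and 0.00291 with the correction for GC content and length as well. With that correction alone 2 of 7 were below 0. Groups were apart for 4 genes that were higher in CD11c+ cells (Psmb4, Psmb6, Psmc3 and Psmd8; 12.9%, beside 13.8% of all genes) and 2 that were lower (Psma1 and Psma7; 6.45%, beside 14.2%), shares no larger than the background. With 1 CD11c+ library the values changed. Without replicate 2, the log2 fold changes of Psmc3, Psmc5, Psma2 and Psmc6 were 0.32, 0.59, -0.84 and -0.65. The median of the 31 genes was then 0.137, and it was -0.0526 without replicate 1.

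The 2 CD11c+ libraries differed from each other along GC content. Psmc6, the subunit with the lowest GC content (37.0%), was at 35.1 and 54.4 CPM in replicates 1 and 2, and Psma2 (39.4%) at 15.7 and 27.7 CPM. Psmc5 (51.9%) was at 68.4 and 41.8 CPM, the reverse order. Across the 31 genes the log2 ratio of replicate 1 to replicate 2 ran from -0.81 to 0.71, with a median absolute value of 0.29 (all genes tested 0.35), and its Spearman correlation with GC content was 0.45 (Pearson 0.46). These points share the same pair of libraries. The corresponding median range within a group was 0.20 for the 3 NMO CD11c- libraries and 0.17 for the 3 controls. With a correction for GC content and length per library Psmd1 stayed called in both comparisons with controls, joined by Psmc3 in NMO CD11c- cells and by Psmd3 in CD11c+ cells.

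**Figure D4:**
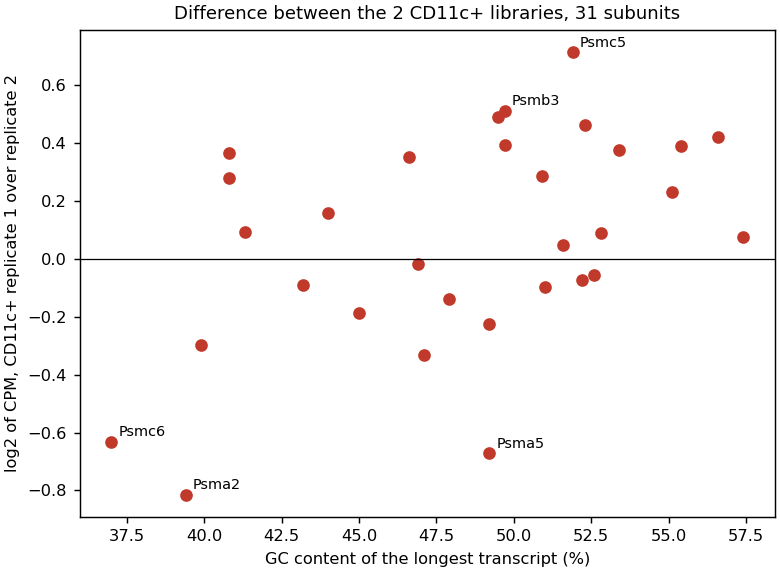
GC content of each subunit's longest transcript (horizontal axis, %) against the log2 ratio of its CPM in CD11c+ replicate 1 to replicate 2 (vertical axis), 1 point per subunit. Points rise from Psma2 and Psmc6 at the lower left to Psmc5 at the upper centre, with a Spearman correlation of 0.45 over 31 genes.

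Of the 3 inducible catalytic subunits, which the immunoproteasome carries, 2 rose in CD11c+ cells against control (beside 6.85% of all genes) and none fell. Psmb8, which replaces Psmb5, was at 108.5 and 79.3 CPM in CD11c+ libraries, 67.2, 76.0 and 64.8 in NMO CD11c- libraries and 53.0, 53.4 and 52.4 in controls. The 3 groups did not overlap, and against control it rose in CD11c+ cells by 0.82 on the log2 scale (SE 0.136, adjusted p = 0.00505). Psmb9, which replaces Psmb6, was at 110.1 and 70.1, 60.2, 82.8 and 60.0, and 41.8, 44.6 and 47.6 CPM in the same order. It rose by 1.01 (SE 0.197, adjusted p = 0.012), with all NMO libraries above all controls; this call was lost without CD11c+ replicate 1 (0.0569), control replicate 1 (0.0547) or control replicate 2 (0.0504). Psmb10, which replaces Psmb7, was at 82.1 and 47.9, 58.1, 70.2 and 62.9, and 63.1, 64.0 and 51.8 CPM and overlapped in all pairs (log2 fold change 0.12, adjusted p = 0.728); without CD11c+ replicate 2 it was 0.46 (adjusted p = 0.0351) and without replicate 1 it was -0.32 (0.248), or -0.45 (0.0424) with the correction for GC content and length as well. In NMO CD11c- cells against control Psmb8 and Psmb9 had log2 fold changes of 0.39 and 0.60 (adjusted p = 0.119 and 0.0995). Both were called when only these groups were fitted (adjusted p = 0.013 and 0.0184). Psmb9, but not Psmb8, was also called there with DESeq2 (0.0359) and the edgeR exact test (0.0311). Between the NMO groups their log2 fold changes were 0.43 and 0.41 (adjusted p = 0.204 and 0.343). Exons of Psmb9 overlap those of Tap1 on the opposite strand (5.8% of exon bases), which was at 284.9 and 228.3, 175.1 to 212.3 and 83.5 to 97.4 CPM, and exons of Psmb8 overlap the antisense gene Gm20496 (14.7%); the strand setting of the counting is not given, and the part of these overlaps was not tested.

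The ratio of each inducible subunit to the constitutive subunit it replaces was taken within libraries, as log2 of the counts. For Psmb8 over Psmb5 it was 3.14 and 3.10 in CD11c+ libraries, 2.89, 3.06 and 2.51 in NMO CD11c- libraries and 2.31, 2.67 and 2.57 in controls. CD11c+ cells were above both other groups, by 0.30 and 0.60 (1.52-fold against control; exact two-sided permutation p = 0.2 and 0.1). Without CD11c- replicate 3 the first difference was 0.14. For Psmb9 over Psmb6 the ratio was 0.93 and 0.33, 0.62, 0.74 and 0.51, and -0.19, -0.14 and 0.23. Both NMO groups were above the controls, by 0.67 for CD11c+ cells (1.59-fold) and 0.66 for CD11c- cells (1.58-fold; exact permutation p = 0.1 each), and differed from each other by 0.01 (p = 0.9). For Psmb10 over Psmb7 it was 0.96 and 0.46, 0.70, 0.84 and 0.91, and 0.46, 0.58 and 0.47. NMO CD11c- cells were above the controls by 0.31 (1.24-fold, exact permutation p = 0.1), whereas CD11c+ cells overlapped with them (0.20, p = 0.5). The smallest p these group sizes allow is 0.1, and over the 9 tests the smallest adjusted value was 0.225, so none passed 0.05.

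**Figure D5:**
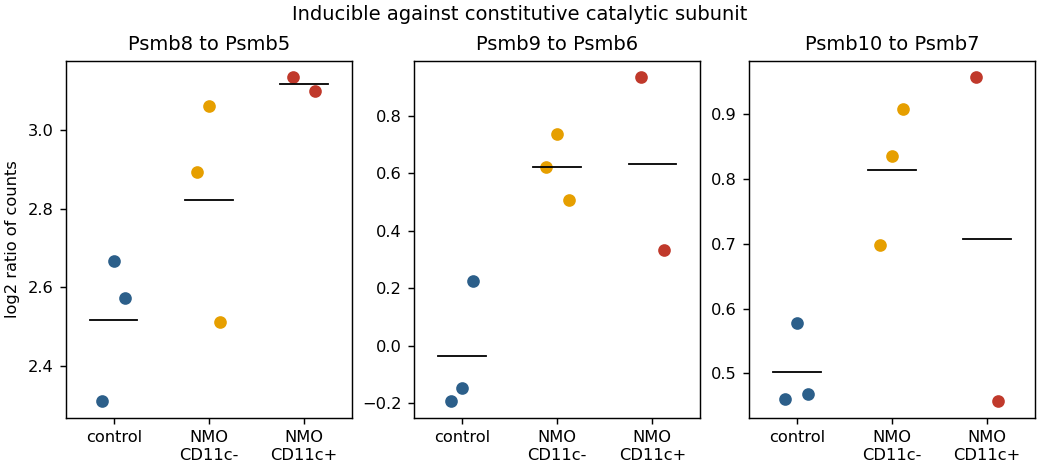
Log2 ratio of counts of an inducible to the replaced constitutive catalytic subunit, 1 point per library in 3 groups, 1 panel per pair; lines are group means and the vertical ranges differ between panels. NMO libraries lie above all controls for Psmb9 over Psmb6, and CD11c+ libraries (3.14 and 3.10) above all others for Psmb8 over Psmb5.

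Proteasome activators, which open the core in place of the 19S cap, and the inhibitor Psmf1 made a list of 5 tested genes. In CD11c+ cells against control Psme1 and Psme2, the interferon-inducible PA28 alpha and beta, rose (2 of 5, beside 6.85% of all genes) and none fell (beside 3.36%). Psme1 was at 168.7 and 119.6 CPM in CD11c+ libraries, 112.2, 123.8 and 111.8 in NMO CD11c- libraries and 80.8, 87.6 and 72.1 in controls. It rose by 0.84 (SE 0.148, adjusted p = 0.00717), with every NMO library above every control. Psme2 was at 41.9 and 33.3, 27.4, 30.0 and 28.4, and 24.3, 22.6 and 23.9 CPM. It rose by 0.67 (SE 0.132, adjusted p = 0.0132), a call lost without control replicate 2 (0.0614) or 3 (0.051). Without CD11c+ replicate 1 and with the correction for GC content and length its log2 fold change was 0.27 (adjusted p = 0.221). With neutrophil marker level as a covariate none of Psmb8, Psmb9, Psme1, Psme2 and Psmd5 was called in this comparison (log2 fold changes 1.08, 2.06, 0.64, 0.71 and -0.93, adjusted p of 0.726 or more). With that covariate 5 of all 12002 genes rose and 0 fell, so the loss is not particular to these genes. In NMO CD11c- cells the values of Psme1 and Psme2 against control were 0.53 (adjusted p = 0.0601) and 0.27 (0.248), and Psme1 was called with DESeq2 there (0.0109). Psme4 (PA200), Psme3 (PA28 gamma) and Psmf1 had -0.35, -0.05 and -0.10 in CD11c+ cells against control.

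No gene of the 6 pathway lists was called in NMO CD11c- cells against control or between the NMO groups. In CD11c+ cells against control, of 8 tested assembly factors 1 fell (12.5%, beside 3.36% of all genes) and none rose (beside 6.85%). Psmd5, a chaperone of the cap's base, was at 18.6 and 24.8 CPM in CD11c+ libraries, 28.9, 28.9 and 31.4 in NMO CD11c- libraries and 34.6, 31.9 and 30.3 in controls. Both CD11c+ libraries were below all others, and Psmd5 fell by 0.57 against control (adjusted p = 0.0404). It was called in 10 of 20 alternative settings and lost without CD11c+ replicate 1 (adjusted p = 0.136) or any single CD11c- or control library (0.0534 to 0.125). The core chaperones Pomp and Psmg4 had log2 fold changes of 0.45 and 0.95 (adjusted p = 0.0521 and 0.0742). Among the shuttle factors and adaptors that bring ubiquitinated proteins to the proteasome, Rad23b had -0.37 (adjusted p = 0.0589) and Nploc4 -0.22. In NMO CD11c- cells against control they had -0.27 and -0.31 (adjusted p = 0.152 and 0.116).

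None of the 8 other cap-associated genes and none of the 6 genes for transcription of proteasome genes was called in any comparison. The ubiquitin receptor Adrm1 was at 29.4 and 32.6 CPM in CD11c+ libraries, 21.0, 22.1 and 24.98 in NMO CD11c- libraries and 24.95, 22.0 and 19.1 in controls. It was highest in the CD11c+ libraries, with a log2 fold change of 0.49 against control (adjusted p = 0.0637). The ubiquitin ligase Ube3c and the cap-associated thioredoxin Txnl1 had -0.40 and -0.31 in CD11c+ cells against control (adjusted p = 0.0767 and 0.111). In NMO CD11c- cells against control they had -0.21 and -0.33 (adjusted p = 0.345 and 0.104). Nfe2l1, the transcription factor that restores proteasome synthesis when the proteasome is impaired, was at 181.8 and 125.1, 132.0, 133.7 and 145.2, and 141.6, 144.7 and 144.2 CPM. Its groups overlapped, with log2 fold changes of 0.16, -0.07 and 0.09 in the order CD11c+ against CD11c-, CD11c- against control and CD11c+ against control (adjusted p = 0.578, 0.829 and 0.696). Ngly1, which processes the Nfe2l1 protein, and the partner proteins Mafg and Mafk had -0.27, 0.18 and 0.55 against control in CD11c+ cells (adjusted p = 0.400, 0.246 and 0.315). Between the NMO groups Mafk had 0.97 (adjusted p = 0.249). It varied strongly between libraries, at 48.4 and 101.5 CPM in the CD11c+ group.

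Reads of some subunits could be shared with copies elsewhere in the genome. By the annotated transcripts 8 of the 31 genes have a copy of at least 95% identity over at least 200 bases in another gene whose exons do not overlap theirs, 14 of these 16 copies being pseudogenes. For Psmd11 the transcript A730017L22Rik drew 488 counts over the 8 libraries beside 2348 for Psmd11, and for Psma3 the pseudogene Gm13835 drew 40 beside 909. Reads that fit both places may be missing from both, so these counts do not bound the uncertainty. The other genes with such copies are Psma4, Psma5, Psmb3, Psmb5, Psmc1 and Psmd2, and some copies are not among the genes counted. Exons of Psmb7, Psmd13 and Psmc3 overlap those of Nek6, Sirt3 and Slc39a13 on the opposite strand by 11.8%, 10.1% and 8.2% of their exon bases, which is a further uncertainty without the strand setting. Psmb5 overlaps the microRNA gene Mir686 on the same strand (12.1% of exon bases), an uncertainty whatever the strand setting. The part of this overlap in the level of Psmb5 and in the ratio of Psmb8 to Psmb5 was not tested.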

How the data were processed

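Raw counts per gene, whole numbers in 1 deposited file for each library, cover 41388 genes and were used unchanged. Per the submitters' processing notes, STAR, HTSeq 0.5.4 and edgeR 3.12.0 were used with the mouse build GRCm38; neither annotation release nor strand setting is given in the sources used here. Symbols, coordinates, exon lengths and GC content came from GENCODE M21, which matched 40254 gene identifiers and left 1134 unmatched (0.155% of counts).

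The test used edgeR 4.0.16 and limma 3.58.1 under R 4.3.3: filterByExpr (minimum count 10, by group), TMM scaling, and 1 quasi-likelihood fit over all 8 libraries (5 residual degrees of freedom, prior 5.08, common dispersion 0.0223). Comparisons were contrasts between group means. Genes with a p under 0.05 after Benjamini-Hochberg adjustment over 12002 genes were called. Group values are mean ± SD over libraries, CPM use TMM-scaled library sizes, and SE belongs to the fitted log2 fold change. Ratios of counts had 0.5 added to each count. Groups follow the population named in the labels; replicates are numbered in accession order.

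The 31 members and all gene lists were chosen with earlier results of these data known. All members are named; values per library are given for the catalytic subunits, Psmd4, Psmd14, and up to 4 members of each structural group with the smallest p, and of each other list up to 3 genes and any called. One listed gene, Paaf1, was not matched, and 1 is not reported here. Alternatives were RLE, upper quartile and library-size scaling, no or a stricter filter, DESeq2 1.42.0, the exact test, only the groups compared, covariates for neutrophil or immediate early genes, a correction for GC content and length (99.53% of tested genes have both), and each library left out in turn, also with that correction for CD11c+ libraries. The fit was also run on counts simulated from its own dispersions, without the dependence on GC content seen in CD11c+ replicate 1. The outcome is not given here.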

Additional observations from a re-analysis of the deposited data

How the results depend on the processing

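Of 1950 refitted values of single subunits over 21 alternative settings, 1723 kept their direction and their side of the threshold, and of 2820 for the other pathway genes 2440 did. Psmd1 was called in 19 of 20 alternatives for CD11c+ cells against control and in 17 of 20 for NMO CD11c- cells, the neutrophil covariate apart. With that covariate 0 subunits were lower in both comparisons with controls, as were 0 of all 12002 genes. The median between the NMO groups was -0.196, and 0 of all genes were called there. The covariate was 0.0841 and 0.405 in CD11c+ libraries, 6.44 to 7.94 in NMO CD11c- libraries and 4.86 to 6.14 in controls. It does not overlap between groups, so this setting can hardly separate it from group. The cause was not tested. With the immediate early covariate the median in NMO CD11c- cells against control was -0.0574. In CD11c+ cells against control 1 subunit was then higher (Psmb1, beside 716 of 12002 genes). Subunits lower in NMO CD11c- cells numbered 2 with the GC and length correction (beside 244 of 12002 genes). They numbered 2 when only the groups compared were fitted (beside 418 of 11646). In CD11c+ cells against control the number lower was 2 with library-size scaling (beside 513 of 12002 genes). It was 4 without a filter (beside 1083 of 21199) and 2 with the GC and length correction (beside 564 of 12002).

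Over libraries left out, subunits higher and lower between the NMO groups numbered 0 to 2 each, and their median was -0.0526 to 0.137. Those lower in NMO CD11c- cells against control numbered 0 to 2. For CD11c+ cells against control 0 to 1 were higher and 0 to 6 lower (6 without CD11c+ replicate 2), with medians of -0.172 to -0.00589. With the correction for GC content and length added, leaving out CD11c+ replicate 1 gave a median of -0.0452 between the NMO groups, 6 lower in NMO CD11c- cells, and 1 higher and 4 lower in CD11c+ cells against control. Leaving out replicate 2 with it gave 4 higher and 1 lower between the NMO groups, 6 lower in NMO CD11c- cells, and 2 higher and 3 lower in CD11c+ cells against control. Under that last setting Psmc2 changed sign to 0.54 between the NMO groups (adjusted p = 0.0201) and to 0.40 against control (0.018), and Psmb7 to 0.56 against control (0.0315). Without replicate 1 and with the correction Psmb10 was at -0.45 (0.0424). Over libraries left out, the log2 ratio of Psmb9 to Psmb6 differed by -0.289 to 0.312 between the NMO groups and by 0.369 to 0.970 for CD11c+ cells against control, and that of Psmb10 to Psmb7 by -0.356 to 0.143 and by -0.0448 to 0.454. That of Psmb8 to Psmb5 differed by 0.140 to 0.416 between the NMO groups. A group left with 1 library was assumed to vary like the others, and the counts of subunits passing in such fits rest on that assumption. With CD11c+ replicate 2 left out, more of all genes passed than in the fit over all 8 libraries, in every comparison and direction. With CD11c+ replicate 1 left out, more of all genes passed in NMO CD11c- cells against control, but fewer in comparisons of CD11c+ cells. The counts of subunits were not tested against those of all genes. No paired analysis was possible because the labels carry no replicate number shared between groups and tie no libraries to 1 mouse. The group sizes and 26 to 989 counts per subunit and library limit the precision, which the intervals give.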
